A study of Mus musculus with 6 samples.

Results

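Cholesterol synthesis was examined through 30 genes of the mevalonate and sterol pathway in biliary epithelial cells of non-pregnant and pregnant mice. The genes were chosen by name: 19 enzymes from acetyl-CoA to cholesterol, the isoprenoid branch enzyme Ggps1, 4 genes of the SREBP2 control machinery and 6 genes of sterol movement, storage, efflux and receptor turnover. All 30 were found among the 21700 genes of the deposited table, and all 30 were among the 11412 genes tested, whose average level over the libraries reached 1 FPKM. FPKM counts fragments per kilobase of exon, scaled to library depth. The length used spans all annotated exons of a gene, which can exceed that of its transcripts, so levels of different genes compare only roughly.

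The samples were 6 RNA-seq libraries of biliary epithelial cells, the cells that line the bile ducts, sorted by flow cytometry from the livers of wild-type (WT) female C57BL/6 mice. Of these, 3 were labelled non-pregnant and 3 pregnant at dpc8, days post coitum. No other treatment, allele or age is given. The sources used here do not name the sorting antibodies. The labels do not state that each library is a different animal, and the p-values cover only the spread among the libraries, which could be technical.

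Cells make cholesterol from acetyl-CoA through mevalonate, farnesyl diphosphate, squalene and lanosterol. When sterols in the endoplasmic reticulum run low, SCAP carries the membrane-bound transcription factor SREBP2 to the Golgi, where it is cut and released to switch on the genes of synthesis and uptake; INSIG proteins hold the complex back when sterols are plentiful. Oxidised sterols act in the opposite sense through the LXR receptors, which induce cholesterol efflux through ABCA1 and, through MYLIP, breakdown of the lipoprotein receptor that brings cholesterol in.

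Each library held between 25047887 and 35083751 recovered fragments, with the highest number in non-pregnant library 3. The biliary markers Krt19, Krt7, Epcam, Sox9 and Spp1 were present in all 6 libraries. Their summed level was 5379, 5978 and 4671 FPKM in non-pregnant libraries 1 to 3 and 6878, 6508 and 6418 FPKM in the pregnant ones, mostly Spp1, with the same order of the non-pregnant libraries as the enzymes described below. Krt19, Epcam and Spp1 did not overlap between groups, and none of the 5 passed the test. Non-pregnant library 2 stood apart in endothelial markers: all 8 were highest there, and their summed level was 219 FPKM against 15.2 to 30.3 FPKM in the other 5. The 12 Kupffer cell markers (liver macrophages) summed to 57.4 to 90.4 FPKM in the non-pregnant and 110 to 181 FPKM in the pregnant libraries, and 8 of the 10 that were tested did not overlap between groups (9.9% of all genes tested did not overlap and were higher). Of these, Cd5l, C1qa, C1qc and Fcna rose in pregnancy (limma adjusted p from 0.0357 to 0.0393). None of the 8 endothelial or 12 Kupffer cell markers was at 0 in any library, and the 14 hepatocyte markers summed to 2414 to 3120 FPKM over all 6 libraries. The part of these cells in the results below was not tested. Leaving out a library removes its marker and enzyme levels together, so it cannot test this either. In such bulk samples, fewer cells of a type and less RNA per cell cannot be told apart.

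Taken as a pathway, the enzymes of cholesterol synthesis stood at one high level in the pregnant libraries and were spread widely among the non-pregnant ones. The summed level of the 19 enzymes was 225, 388 and 143 FPKM in non-pregnant libraries 1, 2 and 3, and 395, 376 and 406 FPKM in pregnant libraries 1, 2 and 3. Non-pregnant library 2 lay within the pregnant range, and the other 2 lay below all 3 pregnant libraries. As a share of the pregnant mean, the non-pregnant libraries reached 57.4%, 98.8% and 36.3%. The group means were 251.9 ± 124.7 FPKM (SD, n = 3) and 392.7 ± 15.2 FPKM (SD, n = 3), a ratio of 1.56.

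No member passed the test of pregnant against non-pregnant libraries (limma on log2(FPKM + 1), Benjamini-Hochberg adjusted p under 0.05), where 0.0613% of all genes tested passed as higher and 0.0263% as lower. At an unadjusted p under 0.05, 9 members stood higher (7.09% of all genes) and 4 stood lower (6.3%). With limma-voom on the recovered fragments, 0 members passed (0.00889% of genes as higher and 0% as lower), and 11 were higher and 4 lower at an unadjusted p under 0.05 (7.32% and 5.57% of genes). The log2 difference was above 0 for 22 of the 30 members and for 18 of the 19 enzymes, against 44.8% of all genes. Its median was 0.65 over the enzymes and -0.02 over all genes tested. The groups did not overlap for 4 members that were higher in pregnancy, Cyp51, Hsd17b7, Idi1 and Hmgcs1 (9.9% of all genes), and for 3 that were lower, Ggps1, Npc1 and Mylip (12.2%).

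**Figure D1:**
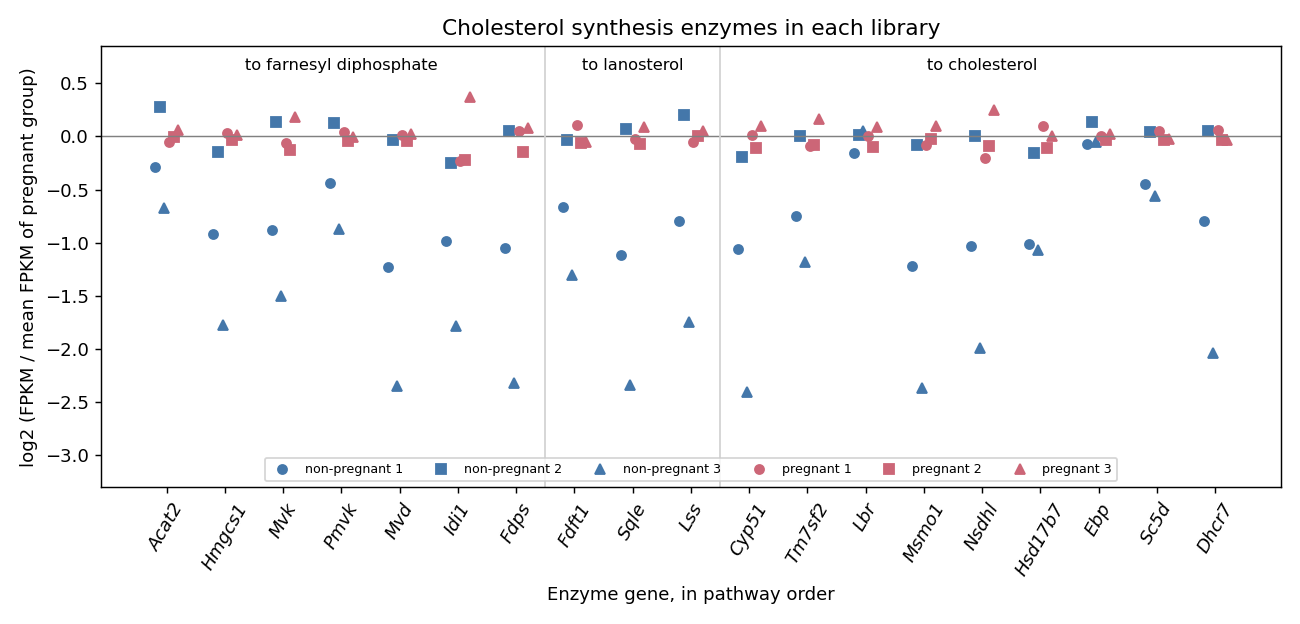
Level of each of the 19 synthesis enzymes in each library, as log2 of its FPKM over the mean of the 3 pregnant libraries, in pathway order; blue marks are non-pregnant and red marks pregnant libraries, and the shape gives the replicate number. Non-pregnant library 3 (blue triangles) is the lowest of the 6 for 17 of the 19 enzymes, non-pregnant library 1 (blue circles) lies below all pregnant libraries for 19 of 19, and non-pregnant library 2 (blue squares) lies within the pregnant range for 11.

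The mevalonate arm turns acetyl-CoA into farnesyl diphosphate. Hmgcs1, which makes HMG-CoA in the cytosol, had the highest FPKM of the enzymes. Its level was 46.2, 79.1 and 25.6 FPKM in non-pregnant libraries 1 to 3 and 89.4, 85.3 and 88.1 FPKM in the pregnant libraries. Every pregnant library lay above every non-pregnant one, with library 2 closest. The log2 difference was 0.93 ± 0.34 (SE; 95% interval 0.15 to 1.71; limma adjusted p = 0.330).

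Mvd, which decarboxylates mevalonate diphosphate to isopentenyl diphosphate, stood at 5.67, 12.9 and 2.61 FPKM in the non-pregnant libraries and at 13.4, 12.9 and 13.5 FPKM in the pregnant ones. The pregnant libraries lay close together, non-pregnant library 2 lay among them, and library 3 was lowest. The log2 difference was 1.04 ± 0.41 (SE; limma adjusted p = 0.355). Fdps, which joins isoprene units into farnesyl diphosphate, had the same order, with 9.38, 20.1 and 3.89 FPKM against 20.1, 17.5 and 20.5 FPKM. Here non-pregnant library 2 was inside the pregnant range, and the log2 difference was 0.99 ± 0.45 (SE; limma adjusted p = 0.385). Idi1, the isopentenyl diphosphate isomerase, had the lowest FPKM of the enzymes. It stood at 1.49, 2.49 and 0.86 FPKM in the non-pregnant and at 2.52, 2.54 and 3.82 FPKM in the pregnant libraries, which did not overlap although non-pregnant library 2 and pregnant library 1 were close. Its log2 difference was 0.63 ± 0.23 (SE; limma adjusted p = 0.336).

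In the rest of the arm, Mvk, the mevalonate kinase, ran from 4.02 to 12.5 FPKM in non-pregnant and from 10.4 to 12.9 FPKM in pregnant libraries, and Pmvk, which adds the next phosphate, from 9.57 to 19.1 and from 17.0 to 18.0 FPKM. Acat2, the cytosolic thiolase that joins acetyl-CoA units at the entry, ran from 7.05 to 13.6 FPKM and from 10.9 to 11.8 FPKM. The groups overlapped in all 3 through non-pregnant library 2, and their log2 differences were 0.65, 0.37 and 0.21.

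Squalene synthase, squalene epoxidase and lanosterol synthase carry farnesyl diphosphate to lanosterol. Sqle, the epoxidase and one of the controlled steps of the pathway, stood at 15.6, 35.3 and 6.66 FPKM in the non-pregnant and at 33.1, 32.0 and 35.9 FPKM in the pregnant libraries. Non-pregnant library 2 lay inside the pregnant range and library 3 was 5.30 times below library 2. On the log2 scale the difference was 1.06 ± 0.47 (SE; limma adjusted p = 0.381). Fdft1, the synthase at the branch point to sterols, stood at 28.3, 44.0 and 18.3 FPKM against 48.4, 43.1 and 43.4 FPKM. Lss, which closes the rings, stood at 7.69, 15.3 and 3.99 FPKM against 12.9, 13.4 and 13.8 FPKM. In both genes non-pregnant libraries 1 and 3 were below every pregnant library, and in Lss library 2 was above every one. Their log2 differences were 0.64 ± 0.27 and 0.69 ± 0.36 (SE).

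Between lanosterol and cholesterol the enzymes fell into a group that tracked the rest of the pathway and 2 that varied little. Cyp51, the lanosterol demethylase, had the largest difference of the enzymes on this scale, while Mvd and Msmo1 had larger ones with limma-voom and Msmo1, Mvd and Sqle with array weights. It stood at 17.3, 31.4 and 6.80 FPKM in the non-pregnant and at 36.2, 33.3 and 38.5 FPKM in the pregnant libraries, with no overlap. On the log2 scale the difference was 1.15 ± 0.44 (SE; 95% interval 0.14 to 2.16; limma adjusted p = 0.346).

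Msmo1, which oxidises the methyl groups that are then removed, stood at 8.50, 18.7 and 3.83 FPKM against 18.7, 19.4 and 21.1 FPKM. Non-pregnant library 2 was level with pregnant library 1 and the other non-pregnant libraries were far below. Its log2 difference was 1.10 ± 0.43 (SE; limma adjusted p = 0.352). Hsd17b7, the ketosteroid reductase that completes that removal, stood at 3.38, 6.13 and 3.25 FPKM against 7.30, 6.32 and 6.83 FPKM. The groups did not overlap, non-pregnant libraries 1 and 3 were nearly equal, and it had the smallest p among the enzymes (log2 difference 0.61 ± 0.19, SE; limma unadjusted p = 0.0127, adjusted p = 0.301). Nsdhl, the decarboxylating dehydrogenase between them, ran from 3.70 to 14.7 FPKM in non-pregnant and from 12.8 to 17.4 FPKM in pregnant libraries.

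Dhcr7, which makes cholesterol from its last precursor in one of the pathway's branches, stood at 5.70, 10.3 and 2.42 FPKM against 10.3, 9.69 and 9.69 FPKM. Only non-pregnant libraries 1 and 3 were below the pregnant ones, and the log2 difference was 0.77 ± 0.37 (SE; limma adjusted p = 0.397). Sc5d, the desaturase before it, ran from 12.8 to 19.5 FPKM against 18.5 to 19.5 FPKM, and Tm7sf2, a sterol reductase, from 3.13 to 7.11 FPKM against 6.64 to 7.94 FPKM.

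Lbr and Ebp varied little while the others spread. Lbr, an inner nuclear membrane protein that also reduces sterols, stood at 10.9, 12.2 and 12.5 FPKM in the non-pregnant and at 12.1, 11.3 and 12.9 FPKM in the pregnant libraries. Ebp, the sterol isomerase, stood at 11.6, 13.3 and 11.7 FPKM against 12.2, 11.9 and 12.4 FPKM. The groups overlapped in both, and the 95% intervals of the log2 difference were -0.17 to 0.22 for Lbr and -0.18 to 0.18 for Ebp.

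Most of the enzymes varied together from library to library. For 17 of the 19, Pearson's correlation of the log2 level with the median of the other enzymes over the 6 libraries was above 0.9, from 0.917 for Hsd17b7 to 0.998 for Sqle. It was 0.62 for Ebp and 0.10 for Lbr. Spearman's rank correlation over the same 6 libraries ran from 0.60 (Fdft1 and Hsd17b7) to 1 (Sqle) for those 17. By rank, Ebp stood at 0.89 and Lbr at 0.43. These are descriptions over 6 points that share their libraries and their scaling, and carry no test. The share of all genes with a Pearson's correlation above 0.9 was not computed, and the biliary marker Spp1 was at 0.943. Non-pregnant library 3 was the lowest of the 6 for 17 enzymes and 20 members, which it was for 28.5% of all genes. The non-pregnant order of library 2 over 1 over 3 held for 17 enzymes and 21 members, against 22.9% of all genes. On the log2(FPKM + 1) scale, library 2 was at least 2-fold above library 3 for 11 enzymes and 14 members, which 1.87% of all genes were. In FPKM itself, Idi1, Tm7sf2 and Mylip also reached 2-fold, at 2.90, 2.27 and 2.01 times. The median SD of the log2 values was 0.72 for the enzymes in the non-pregnant group and 0.09 in the pregnant group, while over all genes it was 0.14 and 0.08. It was larger in the non-pregnant group for all 19 enzymes and for 26 members, against 75.2% of all genes.

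The promoters of genes that varied together in this way, and of 2 genes of the opposite side of sterol balance, are shown so that the letters of known sterol control elements can be seen. They come from RefSeq on GRCm38.p6 (mm10) and run from 250 bases before to 50 after the annotated start of transcription, on the gene's strand. Bases after the start were found in a GENCODE transcript of the gene for 27 of the 31 member promoters. Of the promoters shown, only that of Hmgcs1 had no such match. Capitals mark the letters CACNCCA of the sterol regulatory element core and the letters CCAAT of the box bound by NF-Y, a common partner of SREBP2, each on either strand, so that CCAAT on the other strand reads ATTGG. Hmgcs1 lies at chr13:119690101-119690400 (plus strand), Mvd at chr8:122443373-122443672 (minus), Msmo1 at chr8:64733529-64733828 (minus), Cyp51 at chr5:4104648-4104947 (minus), Srebf2 at chr15:82147019-82147318 (plus), Abca1 at chr4:53159846-53160145 (minus) and Mylip at chr13:45389492-45389791 (plus).
Hmgcs1: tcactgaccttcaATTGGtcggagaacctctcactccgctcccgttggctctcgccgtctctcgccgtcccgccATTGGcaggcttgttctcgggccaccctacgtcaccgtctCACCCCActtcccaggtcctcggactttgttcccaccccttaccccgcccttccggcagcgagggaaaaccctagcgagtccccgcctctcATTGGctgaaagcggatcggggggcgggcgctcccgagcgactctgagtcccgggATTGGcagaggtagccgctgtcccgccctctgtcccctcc
Mvd: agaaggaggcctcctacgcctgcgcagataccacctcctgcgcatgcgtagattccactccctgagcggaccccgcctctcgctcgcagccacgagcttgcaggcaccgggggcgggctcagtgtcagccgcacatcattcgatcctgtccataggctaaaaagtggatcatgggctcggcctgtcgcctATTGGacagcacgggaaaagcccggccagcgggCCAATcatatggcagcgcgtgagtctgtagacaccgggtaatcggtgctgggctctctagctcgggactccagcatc
Msmo1: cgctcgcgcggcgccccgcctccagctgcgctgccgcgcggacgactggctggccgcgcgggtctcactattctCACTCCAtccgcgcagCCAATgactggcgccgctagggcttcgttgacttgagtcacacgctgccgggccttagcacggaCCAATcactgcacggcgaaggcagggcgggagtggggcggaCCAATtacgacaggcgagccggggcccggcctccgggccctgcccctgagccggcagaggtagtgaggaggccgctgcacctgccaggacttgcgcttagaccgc
Cyp51: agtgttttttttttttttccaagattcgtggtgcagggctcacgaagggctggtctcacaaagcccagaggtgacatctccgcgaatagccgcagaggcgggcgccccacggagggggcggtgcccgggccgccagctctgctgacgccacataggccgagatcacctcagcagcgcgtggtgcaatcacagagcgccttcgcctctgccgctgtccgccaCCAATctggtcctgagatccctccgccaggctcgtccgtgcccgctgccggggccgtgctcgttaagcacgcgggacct
Srebf2: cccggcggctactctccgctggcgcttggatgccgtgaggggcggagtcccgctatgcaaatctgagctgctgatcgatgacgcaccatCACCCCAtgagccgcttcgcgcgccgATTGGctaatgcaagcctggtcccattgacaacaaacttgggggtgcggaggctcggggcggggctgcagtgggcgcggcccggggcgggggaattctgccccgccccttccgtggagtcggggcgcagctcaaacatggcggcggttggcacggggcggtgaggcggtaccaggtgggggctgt
Abca1: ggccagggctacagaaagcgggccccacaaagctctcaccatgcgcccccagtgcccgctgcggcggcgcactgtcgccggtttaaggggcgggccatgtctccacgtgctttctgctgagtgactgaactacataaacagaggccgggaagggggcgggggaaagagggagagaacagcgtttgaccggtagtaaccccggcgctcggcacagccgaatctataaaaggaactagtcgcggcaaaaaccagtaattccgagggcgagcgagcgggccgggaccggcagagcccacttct
Mylip: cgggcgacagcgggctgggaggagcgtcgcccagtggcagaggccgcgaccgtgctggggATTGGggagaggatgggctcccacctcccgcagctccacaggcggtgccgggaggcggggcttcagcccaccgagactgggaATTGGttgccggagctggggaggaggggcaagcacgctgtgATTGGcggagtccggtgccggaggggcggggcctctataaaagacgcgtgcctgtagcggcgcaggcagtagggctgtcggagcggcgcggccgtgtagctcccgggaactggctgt
Hmgcs1, Msmo1 and Srebf2 hold both sets of letters, Mvd, Cyp51 and Mylip hold CCAAT alone, and Abca1 holds neither. Of the 30 members, 25 matched the table, with 31 promoters; Fdft1, Fdps, Npc1, Sqle and Stard4 had no entry. CCAAT was present in 71.0% of the member promoters and in 78.9% of the enzyme promoters, against 37.4% of all 32851 promoters of the same length. Those 32851 promoters cover 27025 genes, whether or not expressed in these cells, while all members were expressed. The shares were not compared with those of expressed genes alone. The letters CACNCCA were present in 25.8% and 15.8% against 18.4%. A GC box (GGGCGG, either strand) was present in 83.9% of member promoters and 84.2% of enzyme promoters against 35.7% of all. An E-box (CACGTG) was present in 22.6% and 15.8% against 7.15%. The overlapping promoters of Scap hold the same E-box and were each counted. A match shows the letters only, not that a factor binds there. A promoter without CACNCCA, such as that of Cyp51, may hold a sterol regulatory element with other letters, which this search would miss.

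Among the control genes, Srebf2 and Insig1 followed the enzymes and Scap did not. Srebf2, which encodes SREBP2, stood at 45.3, 68.5 and 25.7 FPKM in the non-pregnant and at 66.0, 65.0 and 70.7 FPKM in the pregnant libraries. Non-pregnant library 2 lay in the pregnant range and the others below it. The log2 difference was 0.63 ± 0.30 (SE; limma adjusted p = 0.397), and the correlation with the enzymes was 0.992 over the 6 libraries.

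Insig1, which retains the SCAP complex and is itself switched on by SREBP2, stood at 45.9, 61.7 and 22.2 FPKM against 76.3, 65.6 and 61.5 FPKM. Only non-pregnant library 2 reached the lowest pregnant library. Its log2 difference was 0.75 ± 0.32 (SE; limma adjusted p = 0.372). Pearson's correlation of Insig1 with the enzymes was 0.950, and Spearman's rank correlation was lower, at 0.49. Insig2, the related retention protein that SREBP2 does not induce in the same way, had the reverse order, with 10.1, 9.55 and 12.4 FPKM against 8.22, 9.65 and 7.56 FPKM. Non-pregnant library 3, lowest for the enzymes, was highest here, and the log2 difference was -0.30 ± 0.12 (SE; limma adjusted p = 0.355). Scap, the escort protein, stood at 14.8, 16.2 and 15.1 FPKM against 16.2, 14.6 and 14.9 FPKM, with groups that overlapped (95% interval of the log2 difference -0.18 to 0.16).

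**Figure D2:**
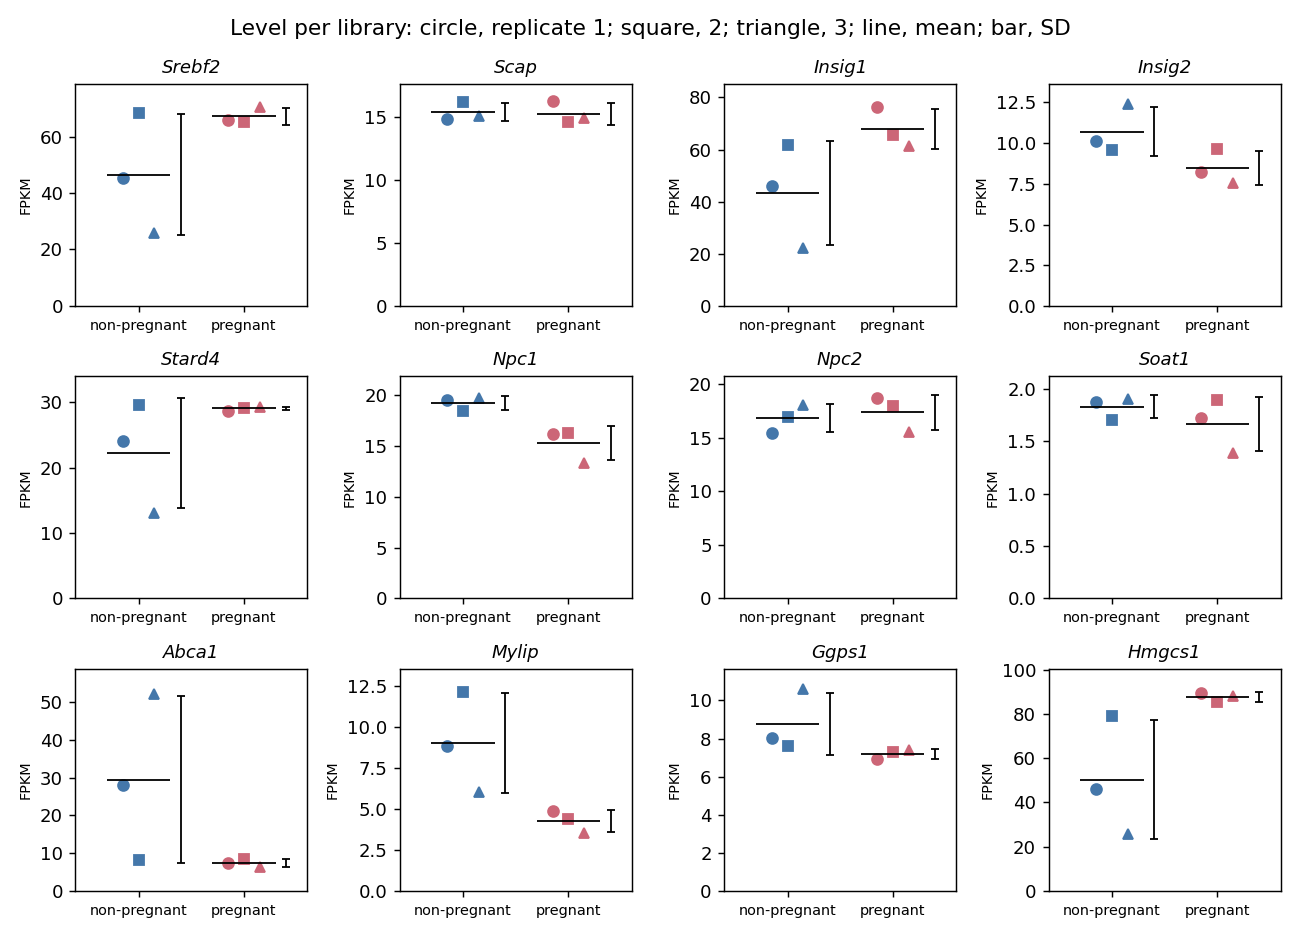
FPKM of the 4 control genes, the 6 transport and turnover genes, Ggps1 and, for comparison, Hmgcs1, per library; circles, squares and triangles are replicates 1, 2 and 3, the line is the mean and the bar the SD (n = 3). Abca1 spans 8.10 to 52.2 FPKM among the non-pregnant libraries and lies between 6.31 and 8.40 FPKM in the pregnant ones, while all 3 pregnant libraries lie below all 3 non-pregnant ones for Mylip, Npc1 and Ggps1.

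Abca1, which exports cholesterol to apolipoprotein A-I, ran against the enzymes. Its level was 27.9, 8.10 and 52.2 FPKM in the non-pregnant libraries and 7.33, 8.40 and 6.31 FPKM in the pregnant ones. Non-pregnant library 3, the lowest for the enzymes, was the highest for Abca1, and library 2 lay in the pregnant range. The log2 difference was -1.54 ± 0.55 (SE; 95% interval -2.80 to -0.27; limma adjusted p = 0.325), and the correlation with the enzymes was -0.992 over the 6 libraries. On the log2(FPKM + 1) scale, it was the only member at least 2-fold higher in non-pregnant library 3 than in library 2, which 0.666% of all genes were.

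Mylip, the ubiquitin ligase that sends lipoprotein receptors for breakdown, had the smallest p of the 30. It stood at 8.89, 12.2 and 6.04 FPKM in the non-pregnant and at 4.85, 4.37 and 3.53 FPKM in the pregnant libraries. All 3 pregnant libraries lay below all 3 non-pregnant ones. Among the non-pregnant libraries, library 2 was the highest for Mylip and the lowest for Abca1. The pregnant mean was 0.471 of the non-pregnant mean and the log2 difference -0.89 ± 0.21 (SE; 95% interval -1.39 to -0.40; limma unadjusted p = 0.00328, adjusted p = 0.279, rank 125 of 11412). Its correlation with the enzymes was -0.19.

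The other transport genes differed less. Npc1, which carries cholesterol out of lysosomes, stood at 19.6, 18.4 and 19.7 FPKM against 16.2, 16.3 and 13.4 FPKM. The groups did not overlap and the non-pregnant libraries lay close together (log2 difference -0.32 ± 0.09, SE; limma unadjusted p = 0.00870, adjusted p = 0.295). Leaving out non-pregnant library 2 gave -0.35, and leaving out library 3 gave -0.30. Its soluble partner Npc2 overlapped between groups, at 15.5 to 18.1 FPKM and 15.5 to 18.7 FPKM. Soat1, which esterifies cholesterol for storage, was low in every library, at 1.70 to 1.91 and 1.39 to 1.89 FPKM. Stard4, a sterol carrier of the cytosol, tracked the enzymes (correlation 0.953 over the 6 libraries), at 24.1, 29.5 and 13.1 FPKM against 28.8, 29.2 and 29.3 FPKM. Ggps1, which leaves the sterol route to make geranylgeranyl diphosphate, stood at 8.03, 7.61 and 10.6 FPKM against 6.90, 7.29 and 7.38 FPKM; the groups did not overlap, and the log2 difference was -0.24 ± 0.12 (SE; limma adjusted p = 0.408).

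**Figure D3:**
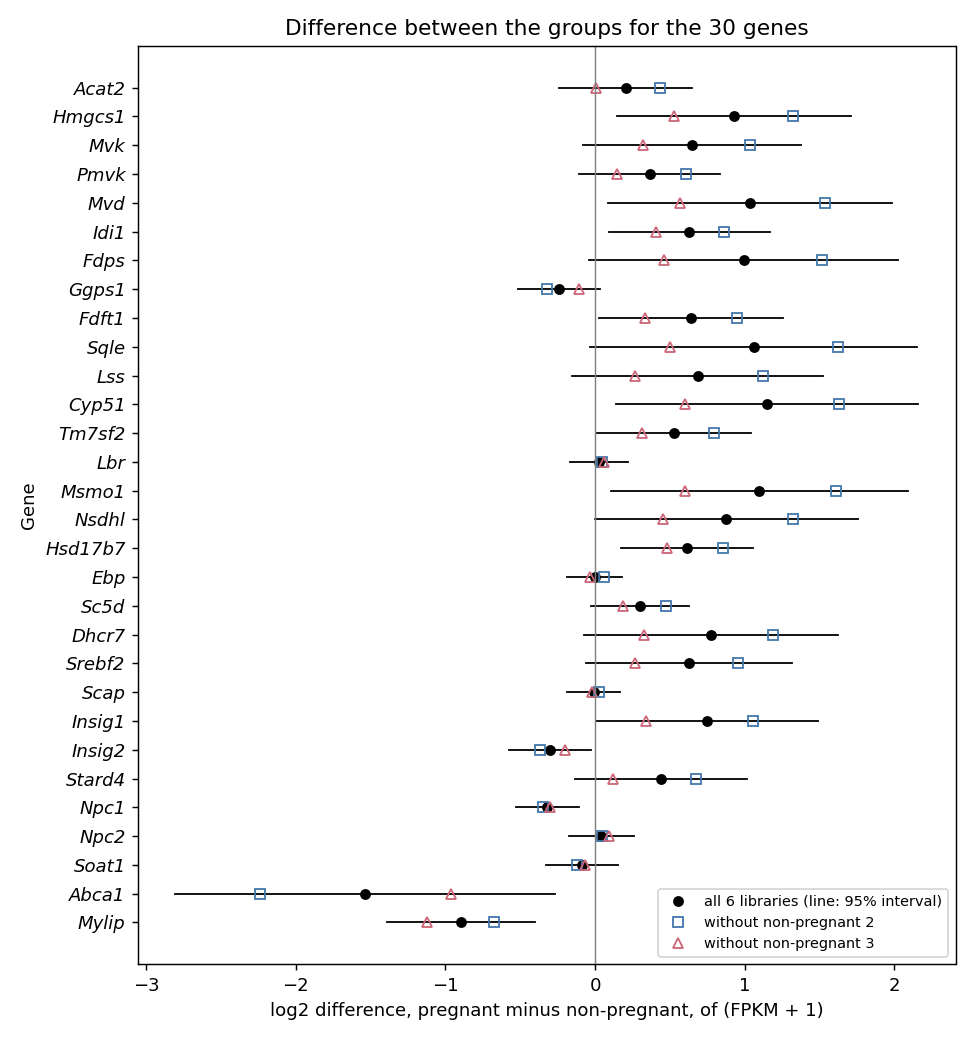
Log2 difference in FPKM + 1 between the pregnant and non-pregnant groups for each of the 30 genes; black dots with 95% intervals use all 6 libraries, blue squares leave out non-pregnant library 2 and red triangles leave out non-pregnant library 3. The squares lie farther from 0 than the dots for most enzymes and the triangles nearer, with the enzyme median at 1.04 and 0.34 against 0.65.

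The count of members that passed depended on which libraries counted. Non-pregnant library 2 had high endothelial markers, and was also the only non-pregnant library within the pregnant range of the summed enzyme level. Leaving it out therefore widens the difference for most enzymes. Without it, 11 enzymes passed as higher (0.797% of all genes) and Abca1 passed as lower (0.368%). The 11 were Mvd, Fdft1, Sqle, Tm7sf2, Hsd17b7, Nsdhl, Msmo1, Sc5d, Mvk, Fdps and Hmgcs1. In that fit Msmo1 had a log2 difference of 1.61 (limma adjusted p = 0.0351), Hsd17b7 of 0.85 (limma adjusted p = 0.0238) and Abca1 of -2.24 (limma adjusted p = 0.0238). With limma's array weights, which gave non-pregnant library 1 a weight of 3.68, library 2 of 0.411 and library 3 of 0.205, 18 members passed as higher (6.31% of all genes) and 3 as lower (5.09%; Abca1, Npc1 and Mylip). Without non-pregnant library 3, no member passed, and the log2 difference was 0.60 for Msmo1, 0.48 for Hsd17b7, 0.27 for Srebf2, -0.11 for Ggps1 and -0.97 for Abca1, all nearer to 0 than with all libraries. Mylip had -1.13 in that fit (limma adjusted p = 0.0897).

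Genes around the pathway were compared as lists, each by counts and its median, and none of their members passed. Of 4 genes of acetyl-CoA supply 3 were above 0 (median log2 difference 0.18); Acly, which makes cytosolic acetyl-CoA from citrate, stood at 67.4, 82.1 and 47.5 FPKM against 81.3, 80.8 and 85.7 FPKM, with the non-pregnant libraries in the order of the enzymes. Slc25a1, the mitochondrial citrate carrier, had that order too, with a log2 difference of 0.32 (limma adjusted p = 0.424). Of 13 fatty acid synthesis genes 9 were above 0 (median 0.15), and their summed level was 494, 599 and 349 FPKM against 636, 611 and 614 FPKM. Fads1, a desaturase of polyunsaturated fatty acids, stood at 37.0, 63.6 and 23.4 FPKM against 66.9, 64.2 and 64.2 FPKM, with the non-pregnant libraries in the order of the enzymes and the groups not overlapping (limma adjusted p = 0.355). Fads2, the other such desaturase, stood at 100.2 to 150.4 FPKM against 162 to 173 FPKM (limma adjusted p = 0.325).

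Genes of sterol handling outside the 30 are given by list, beside the 44.8% of all genes that were above 0. Of 15 sterol transport genes 1 was above 0 and 14 were below (median -0.15), and Osbpl2, an oxysterol-binding protein family member, stood at 11.1, 11.6 and 12.7 FPKM against 9.77, 9.85 and 10.1 FPKM. All 3 pregnant libraries lay below all 3 non-pregnant ones, and the log2 difference was -0.23 ± 0.07 (SE; limma adjusted p = 0.301). Abcg1, an LXR target that exports cholesterol to mature lipoprotein particles, stood at 3.29, 2.74 and 5.89 FPKM against 1.20, 1.13 and 0.77 FPKM. Every pregnant library was below every non-pregnant one, non-pregnant library 3 was the highest as for Abca1, and the log2 difference was -1.24 ± 0.22 (SE; limma adjusted p = 0.184). Nr1h3, which encodes LXR alpha, stood the other way, at 4.55, 4.43 and 3.36 FPKM against 6.15, 5.46 and 5.09 FPKM (limma adjusted p = 0.301). Above 0 were 2 of 6 tested LXR genes and targets, 1 of 10 genes of SREBP processing and turnover, 4 of 13 users of isoprenoids and 3 of 3 tested sterol hydroxylases, with medians of -0.08, -0.10, -0.05 and 0.08. The genes with the smallest p were Pgrmc2 (log2 difference -0.19) and Mbtps1, a protease that cuts SREBP2 (-0.13), the farnesyltransferase subunits Fnta (-0.20) and Fntb (0.11), and the sterol-modifying enzymes Cyp46a1 (0.10) and Hsd3b7 (0.05), with limma adjusted p from 0.354 to 0.835.

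**Figure D4:**
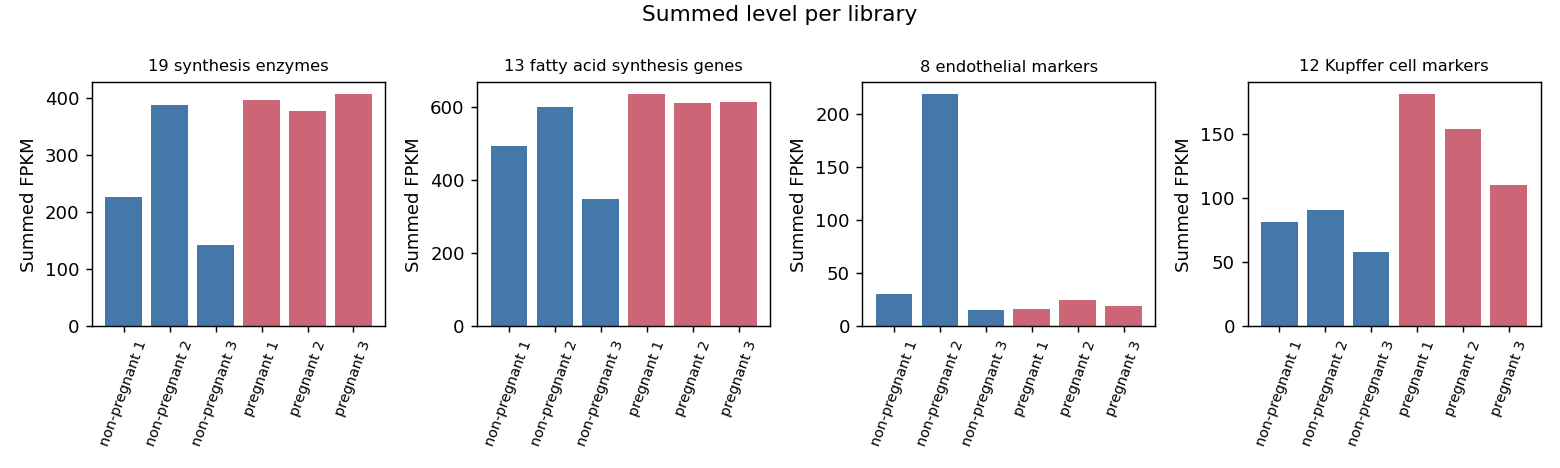
Summed FPKM per library of the 19 synthesis enzymes, the 13 fatty acid synthesis genes, the 8 endothelial markers and the 12 Kupffer cell markers; blue bars are non-pregnant and red bars pregnant libraries. The enzyme sum is lowest in non-pregnant library 3 (143 FPKM), the endothelial sum is highest in non-pregnant library 2 (219 FPKM), and the Kupffer cell sum is higher in all 3 pregnant libraries.

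Counting of some members is uncertain. In the GENCODE annotation, Tm7sf2 overlaps Vps51 and Fdps overlaps the gene model Gm43738 on the same strand. Cyp51, Fdft1, Ggps1, Lbr and Npc1 overlap protein-coding genes on the opposite strand, and the strand setting of the counting is not known here. Acat2 has a near-identical neighbour, Acat3, that stood at 0.71 to 1.28 FPKM.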

How the data were processed

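RNA was measured in 6 libraries, grouped by the sample titles. The titles do not say whether equal replicate numbers pair samples, and the reported fit did not pair them. Cells were sorted from digested livers and ribosome-depleted total RNA was sequenced, per the labels' protocols. The authors deposited FPKM values, one column per sample. HTSeq 0.13.5, DESeq2 1.30.1, STAR 2.7.9a, cutadapt 3.4 and the build mm10 are named, with no roles, in the submitters' processing notes. Depth came from FPKM times exon length (GENCODE M21), which gave whole numbers within 0.01 for 98.5% of values (25047887 to 35083751 fragments per library). FPKM of a member therefore rested on 106 to 19044 fragments in a library, for the 29 members where they were recovered. The totals implied by FPKM were 28645789 in non-pregnant library 1 and 25312113 in pregnant library 3, against 28916147 and 25047887 recovered fragments. The values were therefore not simply divided by all recovered fragments. Abundant genes can still shift other values. Median-ratio size factors left the median difference of all genes at -0.0211, as in the reported fit, so they are no separate check. Other scalings moved it by under 0.1.

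Genes averaging 1 FPKM or more were tested as log2(FPKM + 1), pseudocount 1 FPKM, pregnant minus non-pregnant. The two-sided test was limma 3.58.1 with a trended prior, run in R 4.3.3, with Benjamini-Hochberg adjustment at 0.05. This scale understates differences of low genes. The fit was tested on simulated data with equal spread in both groups, a setting that the enzymes here did not share. Tables, promoter motifs and figures used Python 3.11.15, pandas 2.3.3, scipy 1.17.1 and matplotlib 3.10.9. The members, lists, tests and alternatives were chosen with earlier results of these data known. The text names all members and, of the other pathway lists, genes past the threshold and up to 2 with the smallest p. One gene that this rule names is not reported here. The sample description of non-pregnant library 3 numbers it 4. The alternatives were other pseudocounts, filters and scalings, robust fitting, array weights, limma-voom, a replicate block and leaving out each library.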

Additional observations from a re-analysis of the deposited data

How the results depend on the processing

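The median log2 difference of the enzymes was above 0 under all 17 alternatives, between 0.34 and 1.04. It covered 19 enzymes, or 18 with limma-voom and with a mean of at least 5 FPKM. Robust fitting, the replicate block and the filters on low values cannot change the log2 difference of a gene. Their agreement in direction was therefore fixed in advance. Of 507 values of members under these alternatives, 461 kept their direction and side of the threshold, 33 passed it in the same direction and 13 changed sign, all in Ebp, Scap, Lbr and Npc2. Quantile normalisation gave 0.0149 for Ebp and 0.0178 for Scap, and array weights gave 0.0402 and 0.0296. Leaving out 1 library gave -0.0370 to 0.0588 for Ebp, -0.0531 to 0.0256 for Scap, -0.0311 to 0.0705 for Lbr and -0.0136 to 0.118 for Npc2. With array weights, which gave non-pregnant libraries 1, 2 and 3 weights of 3.68, 0.411 and 0.205, 21 members passed, 18 higher (6.31% of all genes) and 3 lower (5.09%), among 1301 genes. Leaving out 1 library gave 0 to 12 members (0 to 11 higher, 0 to 1 lower) and 0 to 133 genes, the highest numbers without non-pregnant library 2. Over all genes, 10 passed as reported, 0 with no filter on low values, 4 with a mean of at least 5 FPKM, 5 with robust empirical Bayes and 1 with limma-voom; the cause was not tested. Mylip's adjusted p ran from 0.00588 to 0.738, and its log2 difference from -1.13 to -0.68. Same-numbered libraries did not deviate together (correlations 0.07, 0.02 and -0.14), and with the replicate number as a block 0 members and 13 genes passed. With 3 libraries a group, the spread among the non-pregnant ones (median SD of log2 values 0.72 for the enzymes) sets the width of the intervals.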
